A study of Mus musculus with 15 samples.

Results

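The aminoacyl-tRNA synthetases were taken as every gene of the arrays whose annotated symbol is 1 capital letter followed by ars, alone or with a 1 or 2. The rule found 32 of the 18194 genes with a probe set of their own on the CD4+ T-cell arrays. The 16 symbols that end in 2 (Aars2, Cars2, Ears2, Fars2, Hars2, Iars2, Lars2, Mars2, Nars2, Pars2, Rars2, Sars2, Tars2, Vars2, Wars2 and Yars2) are the mitochondrial enzymes. The other 16 (Aars, Cars, Gars, Hars, Iars, Kars, Lars, Mars1, Nars, Qars, Rars, Sars, Tars, Vars, Wars and Yars) were counted as cytosolic. They were read by 60 probe sets, 28 cytosolic and 32 mitochondrial; 12 genes had a single probe set and none had more than 4. 1 further probe set, shared by Aars and Exosc6, was left out.

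The samples were CD4+ T cells of the spleen, from mice of strain 129/SJ that lack Nras (N-ras KO) and from WT mice of the same litters, 6 to 20 weeks old by the labels. The deletion is carried by every cell of the animal, and the KO mice were bred from heterozygotes. Cells were grown overnight either without antibody (unstimulated) or with 1 µg/ml of antibodies to CD3 and CD28, the low-level TCR stimulus, and each of the 4 groups had 3 arrays. Thymocytes of an untreated WT, an N-ras KO and an H-ras KO mouse of the same strain, with the same age in the labels but 6 weeks in the study's methods, were hybridized to 1 array each, a smaller array that held 23 of the genes. The study's methods describe the mouse behind each CD4+ array in 2 ways, as sorted cells of a mouse divided between the conditions and as a different mouse for each condition.

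Each synthetase joins 1 amino acid to its tRNA, the step that lets the ribosome read the genetic code. A cytosolic and a mitochondrial set of enzymes serve the 2 ribosomes of the cell, and both sets are encoded in the nucleus. Gars and Kars have no mitochondrial counterpart gene, since each makes the enzyme for both places. In the cytosol Iars, Lars, Mars1, Qars, Rars and Kars are bound in 1 large complex with Eprs and the Aimp scaffold proteins. T cells that are activated through the TCR enlarge and take up amino acids before they divide, and many cytosolic synthetase genes are known targets of ATF4, the transcription factor of the amino acid response.

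Since many cytosolic synthetase genes are known targets of ATF4, the promoters were searched for its element. The RefSeq promoter table (build GRCm38.p6, 250 bases before to 50 bases after the start site) held 9 of the 16 cytosolic and 14 of the 16 mitochondrial genes. The composite element of ATF4 and C/EBP factors, TGATGNAAN, was searched on either strand. It was found in 5 of the 9 cytosolic genes (Aars, Gars, Iars, Tars and Yars) and in 0 of the 14 mitochondrial genes. Of all genes with a promoter there, 4.5% held it. The shorter TTGCATCA is contained in that element on the other strand. It was found in Aars, Iars, Tars and Yars and in no mitochondrial gene, against 1.03% of all genes. The E-box CACGTG, a site bound by MYC among others, stood in Aars, Iars, Tars and Ears2, against 8.09% of all genes. The 4 genes with the shorter element are printed 5′ to 3′ on the strand of the gene, with each TGATGNAAN match of either strand in capitals, for Aars (chr8:111033592-111033891, plus strand), Iars (chr13:49681880-49682179, plus strand), Tars (chr15:11399609-11399908, minus strand) and Yars (chr4:129189653-129189952, plus strand).
Aars: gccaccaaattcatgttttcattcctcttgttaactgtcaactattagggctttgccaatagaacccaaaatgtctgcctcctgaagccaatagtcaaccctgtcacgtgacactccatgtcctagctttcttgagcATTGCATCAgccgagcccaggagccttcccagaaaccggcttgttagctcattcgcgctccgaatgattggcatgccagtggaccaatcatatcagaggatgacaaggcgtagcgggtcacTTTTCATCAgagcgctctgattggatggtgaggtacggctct
Iars: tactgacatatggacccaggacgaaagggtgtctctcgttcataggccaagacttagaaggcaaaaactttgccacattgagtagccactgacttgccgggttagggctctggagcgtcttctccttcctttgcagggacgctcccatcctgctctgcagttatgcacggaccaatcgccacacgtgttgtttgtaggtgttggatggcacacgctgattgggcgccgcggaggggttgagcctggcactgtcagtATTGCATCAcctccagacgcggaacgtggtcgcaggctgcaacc
Tars: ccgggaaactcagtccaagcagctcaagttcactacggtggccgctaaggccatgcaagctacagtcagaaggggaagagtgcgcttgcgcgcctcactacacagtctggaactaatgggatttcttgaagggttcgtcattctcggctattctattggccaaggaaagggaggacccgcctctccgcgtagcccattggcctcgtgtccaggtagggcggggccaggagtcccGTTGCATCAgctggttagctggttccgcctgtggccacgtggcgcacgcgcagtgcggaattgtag
Yars: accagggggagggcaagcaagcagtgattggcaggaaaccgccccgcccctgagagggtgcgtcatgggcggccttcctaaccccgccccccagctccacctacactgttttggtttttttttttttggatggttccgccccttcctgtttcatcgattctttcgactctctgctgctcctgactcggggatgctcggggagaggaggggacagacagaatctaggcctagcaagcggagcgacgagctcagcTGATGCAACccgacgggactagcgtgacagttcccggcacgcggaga
The match nearest to the start site began 8 bases after it in Aars, 6 after it in Iars, 16 before it in Tars and 3 after it in Yars, counted to the first base of the match, and Aars held a further one 113 bases before it. A match is a description of the letters in these windows, and no binding was measured.

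The deposited values are log2 differences without a level. Taken over the 3 unstimulated arrays of a genotype, the median was 0 for all 45101 probe sets, as it was over the 3 thymocyte arrays for all 22690. A value of a synthetase thus says how far an array lay from the unstimulated arrays of its own genotype, and whether 1 enzyme was expressed above another cannot be read from it. Unstimulated WT and N-ras KO cells cannot be compared. The stimulation response within a genotype does not depend on that baseline.

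The 3 Nras probe sets went against 2 labels, to different degrees. On 1454060_a_at both arrays labelled N-ras KO 3 were high, at 2.04 unstimulated and 2.09 stimulated, and both arrays labelled WT 1 were low, at -2.68 and -3.04. The other 8 arrays lay between -0.10 and 0.51. On 1422688_a_at N-ras KO 3 was at 1.21 and 0.80 and WT 1 at -1.23 on both arrays, outside the other 8 (-0.65 to 0.65). On 1422687_at N-ras KO 3 was at 1.70 and 1.21 and unstimulated WT 1 at -1.61, but stimulated WT 1 at -0.14 lay within the other 8 (-0.46 to 0.38). Groups are therefore called by their labels throughout, and results are given with and without these arrays. Stimulated and unstimulated arrays of the same number and genotype deviated together over all probe sets (correlations of 0.361 to 0.738), which is the basis for the pair differences below.

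The arrays numbered 3 set the synthetases apart more than the stimulus did. The median cytosolic synthetase was at 0.30 log2 on the unstimulated and 0.70 on the stimulated array labelled WT 3, and at -0.67 and -0.55 on those labelled N-ras KO 3. On the other 8 arrays it lay between -0.17 and 0.13. The mitochondrial median followed the same arrays, at 0.21 and 0.31 in WT 3 and -0.46 and -0.72 in N-ras KO 3, with the other 8 between -0.21 and 0.16. Both groups thus leaned up on the WT 3 arrays and down on the N-ras KO 3 arrays. The median of all 18194 genes stayed between -0.07 and 0.13 on all 12 arrays. The normalization and baseline shift of the methods hold that median near 0, so it does not show whether other genes moved.

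**Figure D1:**
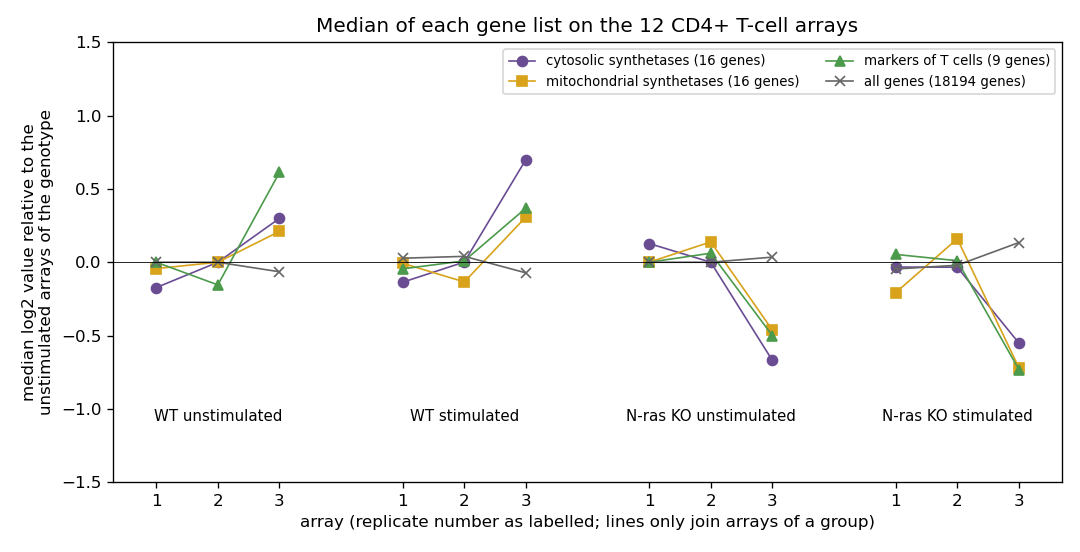
Median log2 value of the cytosolic synthetases, the mitochondrial synthetases, the T cell markers and all genes (vertical axis, relative to the unstimulated arrays of the genotype) on each of the 12 CD4+ T-cell arrays, in the order of their labels. Cytosolic synthetases were at 0.30 and 0.70 on the WT 3 arrays and at -0.67 and -0.55 on the N-ras KO 3 arrays. The median of the T cell markers moved the same way.

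Counted by probe set, 17 of the 28 cytosolic probe sets (60.7%) were higher on both WT 3 arrays than on the other 4 arrays of that genotype, against 17.7% of all probe sets. In the N-ras KO arrays 18 of the 28 (64.3%), from 12 genes, were lower on both arrays numbered 3 than on the other 4, against 17.4% of all. Of the 32 mitochondrial probe sets 13 (40.6%) were higher in WT 3 and 15 (46.9%) lower in N-ras KO 3, against the same backgrounds. The opposite order was seen in 2 cytosolic probe sets in WT 3 and in 1 in N-ras KO 3, although 33.2% and 29.7% of all probe sets had it. Fewer cells of a type and less RNA per cell cannot be told apart in these bulk samples.

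Iars, the isoleucyl-tRNA synthetase and a member of the large complex, had the widest range. The mean of its probe sets was -0.82, 0.00 and 1.34 on the unstimulated arrays labelled WT 1, 2 and 3, and -0.92, -0.56 and 1.99 on the stimulated ones. On the arrays labelled N-ras KO it was 0.30, 0.08 and -2.99 unstimulated and 0.09, 0.34 and -2.57 stimulated. The arrays numbered 3 were the highest of WT and the lowest of N-ras KO with and without stimulation, and stimulation moved no pair by more than 0.64. Sars, the seryl-tRNA synthetase, ran the same way, at 1.06 and 0.97 on the WT 3 arrays and -1.69 and -1.43 on the N-ras KO 3 arrays. Aars, the alanyl-tRNA synthetase, was at 0.66 and 1.02 against -1.67 and -1.57. Yars, the tyrosyl-tRNA synthetase, was at 1.35 and 1.67 on the WT 3 arrays and at -0.99 on the unstimulated N-ras KO 3 array, but at 0.11 on the stimulated one.

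Among the mitochondrial genes Rars2, the arginyl enzyme, was at 1.24 and 1.58 on the WT 3 and -1.43 and -1.73 on the N-ras KO 3 arrays, and Iars2, the isoleucyl enzyme, at 1.11 and 0.95 against -1.28 and -1.61. Vars, the cytosolic valyl-tRNA synthetase, ran the other way, at -0.99 and -0.92 on the WT 3 arrays and 1.24 and 1.83 on the N-ras KO 3 arrays. Mars2, the mitochondrial methionyl enzyme, did so too, at -0.34 and -0.65 against 1.46 and 0.75. Kars, Rars and Qars varied little, with ranges over the 12 arrays of 0.67, 0.79 and 0.74. The median range over the 12 arrays was 1.48 for the cytosolic and 1.74 for the mitochondrial genes, against 1.24 for all genes. For each gene the larger mean response of the 2 genotypes, as a size, was also taken, with medians of 0.21, 0.35 and 0.24. A range over 12 single arrays is wider than a mean of 3 pairs through scatter alone, so these 2 measures are not alike.

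**Figure D2:**
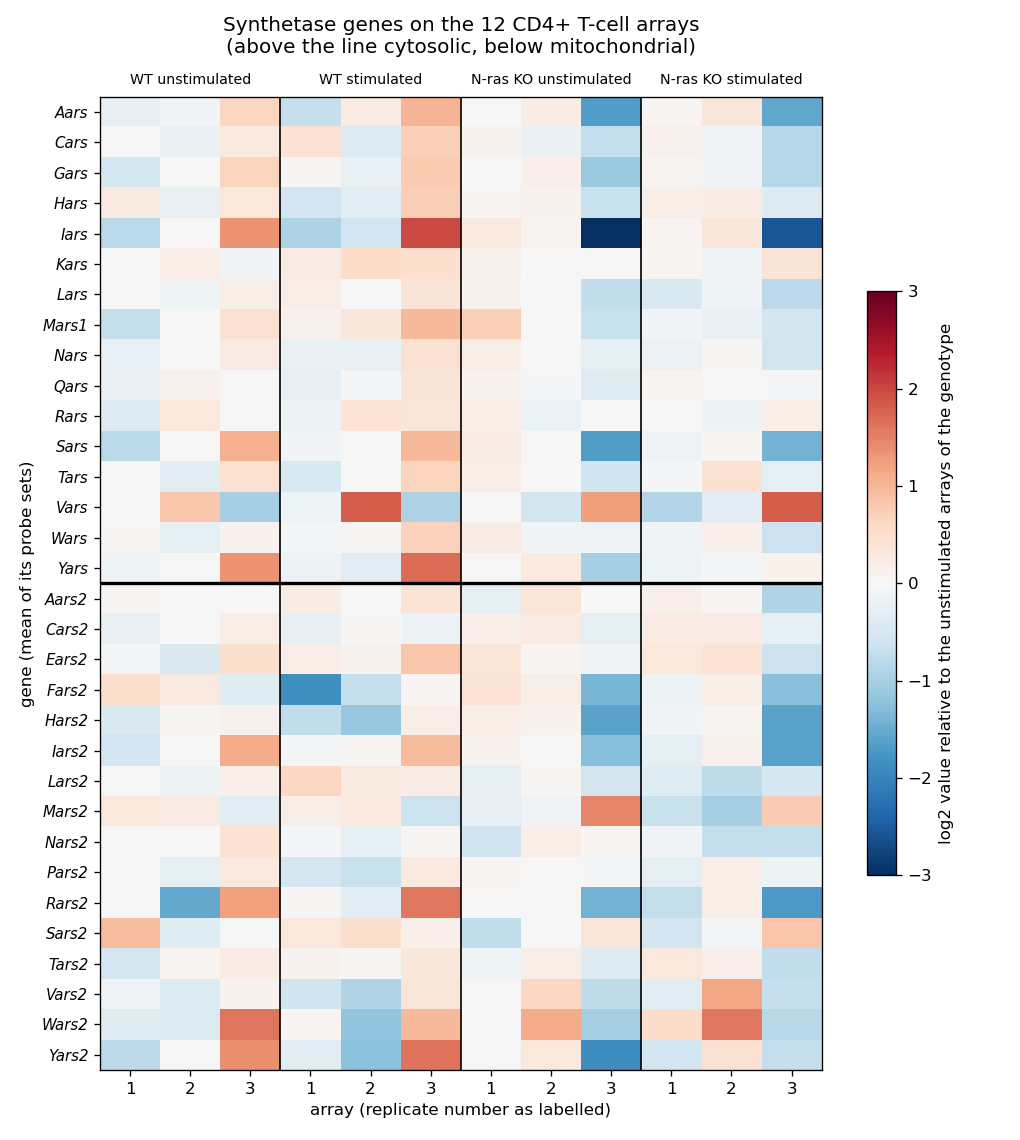
Log2 value of each of the 32 synthetase genes (rows, the mean of its probe sets) on each of the 12 CD4+ T-cell arrays (columns, by label), coloured from -3 (blue) to 3 (red) relative to the unstimulated arrays of the genotype. Most rows are red in the WT columns numbered 3 and blue in the N-ras KO columns numbered 3, with Iars from -2.99 to 1.99, and Vars and Mars2 in the opposite order.

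Medians of some cell type markers moved with these arrays. The median of 9 T cell markers was 0.61 and 0.37 on the WT 3 arrays and -0.50 and -0.73 on the N-ras KO 3 arrays, with the other 8 between -0.15 and 0.06. The median of 4 B cell markers was high on both (0.89 and 1.47 in WT 3, 1.15 and 1.37 in N-ras KO 3) and low on the WT 1 arrays (-1.18 and -1.04). For 5 macrophage and dendritic cell markers it was 1.07 and 1.34 in WT 3 and -0.41 and -0.23 in N-ras KO 3. Single markers of a list disagreed. Those of T cells ran from -1.04 to 1.48 on unstimulated WT 3 and from -1.35 to 0.44 on unstimulated N-ras KO 3. Those of macrophages and dendritic cells ran from -2.18 to 1.85 on the latter. The B cell markers were all above 0 on these arrays, from 0.21 to 1.71 and from 0.33 to 2.31. The 6 neutrophil markers were lowest on the WT 2 arrays (-2.17 and -1.67) and highest on the stimulated N-ras KO 2 array (1.51), the 2 CD8 T cell markers lay between -0.80 and 0.66, and the 2 red cell markers between -0.22 and 0.73. All genes also spread more widely on the arrays numbered 3, with an SD of 0.62 to 0.87 against 0.34 to 0.54 on the other 8. The part of cell types and of the wider spread in the synthetase values was not tested, and the values, having no level, do not show whether any marker was present or absent.

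In the cells labelled WT, stimulation moved the synthetases little. The median fitted response of the 16 cytosolic genes was 0.17 log2, with 13 genes above 0 and 3 below, and that of the 16 mitochondrial genes was -0.13, with 7 above 0, against 0.01 for all genes. By pair the cytosolic median was 0.00, 0.04 and 0.36 (0.14 ± 0.20, SD, n = 3) and the mitochondrial one 0.00, -0.02 and 0.09 (0.02 ± 0.06). The cytosolic shift thus came mainly from the pair numbered 3. Without the stimulated array of WT 3 the fitted median was -0.12. That fit kept the unstimulated WT 3 array, where the cytosolic median was 0.30, so it is not the response of pairs 1 and 2. No probe set of the array passed an adjusted p of 0.05 from limma, and 520 of 45101 (1.15%) had an unadjusted p under that value, 2 synthetase probe sets among them. At the study's thresholds (unadjusted p of 0.05 and 1.5-fold) both of these passed, 2 of 60 and both higher, against 1.04% of all probe sets in either direction, 0.53% higher and 0.51% lower. With the replicate number as a block within genotype 2 also passed, against 2.8% of all, but they were Ears2 and, lower with stimulation, Wars2. Without the arrays numbered 3 there were 3, 1 probe set of Lars2 higher and both of Fars2 lower, against 2.95%, and without WT 1 and N-ras KO 3 there was 1, a second probe set of Ears2, against 1.65%.

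The cytosolic genes lay between -0.16 (Hars, the histidyl enzyme) and 0.56 (Mars1, the methionyl enzyme, which charges the initiator tRNA). Mars1 differed by 0.82, 0.34 and 0.51 log2 in the 3 pairs labelled WT. Kars, the lysyl enzyme, differed by 0.25, 0.36 and 0.59, Rars, the arginyl enzyme, by 0.24, 0.08 and 0.37, and Lars, the leucyl enzyme, by 0.20, 0.14 and 0.20. These 4 cytosolic genes were higher in all 3 WT pairs and none was lower in all 3. By probe set 8 of 28 were higher in all 3 pairs, against 14.5% of all probe sets, and 0 were lower in all 3, against 13.5%. None of the 28 passed the study's thresholds, and under the block Mars1 had an unadjusted p of 0.035 and Kars of 0.047 in limma, both with a difference under 1.5-fold, where 5 of the 60 synthetase probe sets and 4.3% of all had a p of 0.05 or less.

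Ears2, the mitochondrial glutamyl enzyme, which also charges the mitochondrial glutamine tRNA with glutamate, was 1 of the 2 mitochondrial genes past the study's thresholds. On probe set 1424774_s_at it was -0.20, 0.06 and 0.00 on the unstimulated and 0.29, 1.20 and 0.45 on the stimulated arrays labelled WT. The groups did not overlap and all 3 pairs differed in 1 direction, by 0.50, 1.13 and 0.45. The fitted difference was 0.69 (SE 0.30, unadjusted p = 0.040, adjusted p = 1.00, limma). Its other probe sets gave 0.50 (1451472_at), 0.35 (1443023_at) and 0.03 (1451471_at). The call was lost without any of 5 of the 12 arrays (WT unstimulated 1, 2 or 3, WT stimulated 2, N-ras KO stimulated 1), with values from 0.42 to 0.87.

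Lars2, the mitochondrial leucyl enzyme, was the other, on 1 of its 3 probe sets. On 1435682_at it was 0.00, -0.81 and 1.03 on the unstimulated and 1.42, 1.32 and 1.00 on the stimulated arrays labelled WT. Pairs 1 and 2 differed by 1.42 and 2.13 and pair 3 by -0.03, and the groups overlapped. The fitted difference was 1.17 (SE 0.51, unadjusted p = 0.042, adjusted p = 1.00, limma), with an unadjusted p = 0.056 under the replicate block. The call was lost without any of 8 of the 12 arrays (WT unstimulated 1 or 2, and each stimulated array of either genotype), with values from 0.73 to 1.65. On 1443672_at the pairs differed by 0.49, -0.23 and 0.39 and on 1439225_at by 0.01, -0.60 and -0.13, so the 3 probe sets of the gene did not move together.

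The largest shift downwards was that of Fars2, the mitochondrial phenylalanyl enzyme, whose probe sets gave a mean of -0.98 with pairs of -2.35, -1.01 and 0.42, so that pair 3 lay on the other side of 0. Hars2, the mitochondrial histidyl enzyme, was lower in all 3 pairs on 1419158_a_at, by 0.60, 0.52 and 0.25 as sizes (fitted -0.46, unadjusted p = 0.024 under the block), but its other probe set, 1449371_at, differed by -0.02, -1.90 and 0.41. Of all 20 genes with several probe sets, 8 cytosolic and 12 mitochondrial, the mean responses in WT had 1 sign in 5 and in 7.

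In the cells labelled N-ras KO, the responses centred on 0. The median fitted response was 0.01 for the cytosolic genes, with 8 above and 8 below 0, and -0.10 for the mitochondrial genes, with 6 above 0, against 0.01 for all genes. By pair the cytosolic median was -0.21, 0.05 and 0.26 (0.03 ± 0.24, SD, n = 3) and the mitochondrial one -0.18, 0.00 and -0.06 (-0.08 ± 0.09). Without the unstimulated array of N-ras KO 3 the cytosolic median was -0.24, in a fit that kept the stimulated array of that pair. Of the 60 probe sets 0 passed the study's thresholds or an unadjusted p of 0.05 in limma, against 2.34% and 2.58% of all probe sets, and 0 passed the adjusted p. The count was 0 under the block, against 4.91%, and 0 without WT 1 and N-ras KO 3, against 3.11%, but 2 without the arrays numbered 3 (Lars2 1435682_at at -0.77 and Mars2 1436777_at at -0.94), against 3.85%. In all 3 pairs 3 of 28 cytosolic probe sets were higher and 5 lower, against 13.8% and 12.9% of all.

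The cytosolic genes lay between -0.30 (Mars1) and 0.21 (Yars). Mars1 differed by -0.79, -0.20 and 0.10 in the 3 pairs and Lars by -0.57, -0.13 and -0.04, the latter lower in every pair. Aars was higher in every pair, by 0.06, 0.11 and 0.11. Among the mitochondrial genes Mars2 had the largest mean, -0.67, with pairs of -0.41, -0.88 and -0.71. Wars2, the mitochondrial tryptophanyl enzyme, was higher in every pair, by 0.54, 0.47 and 0.15. None of these had an unadjusted p of 0.05 or less, with or without the block.

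**Figure D3:**
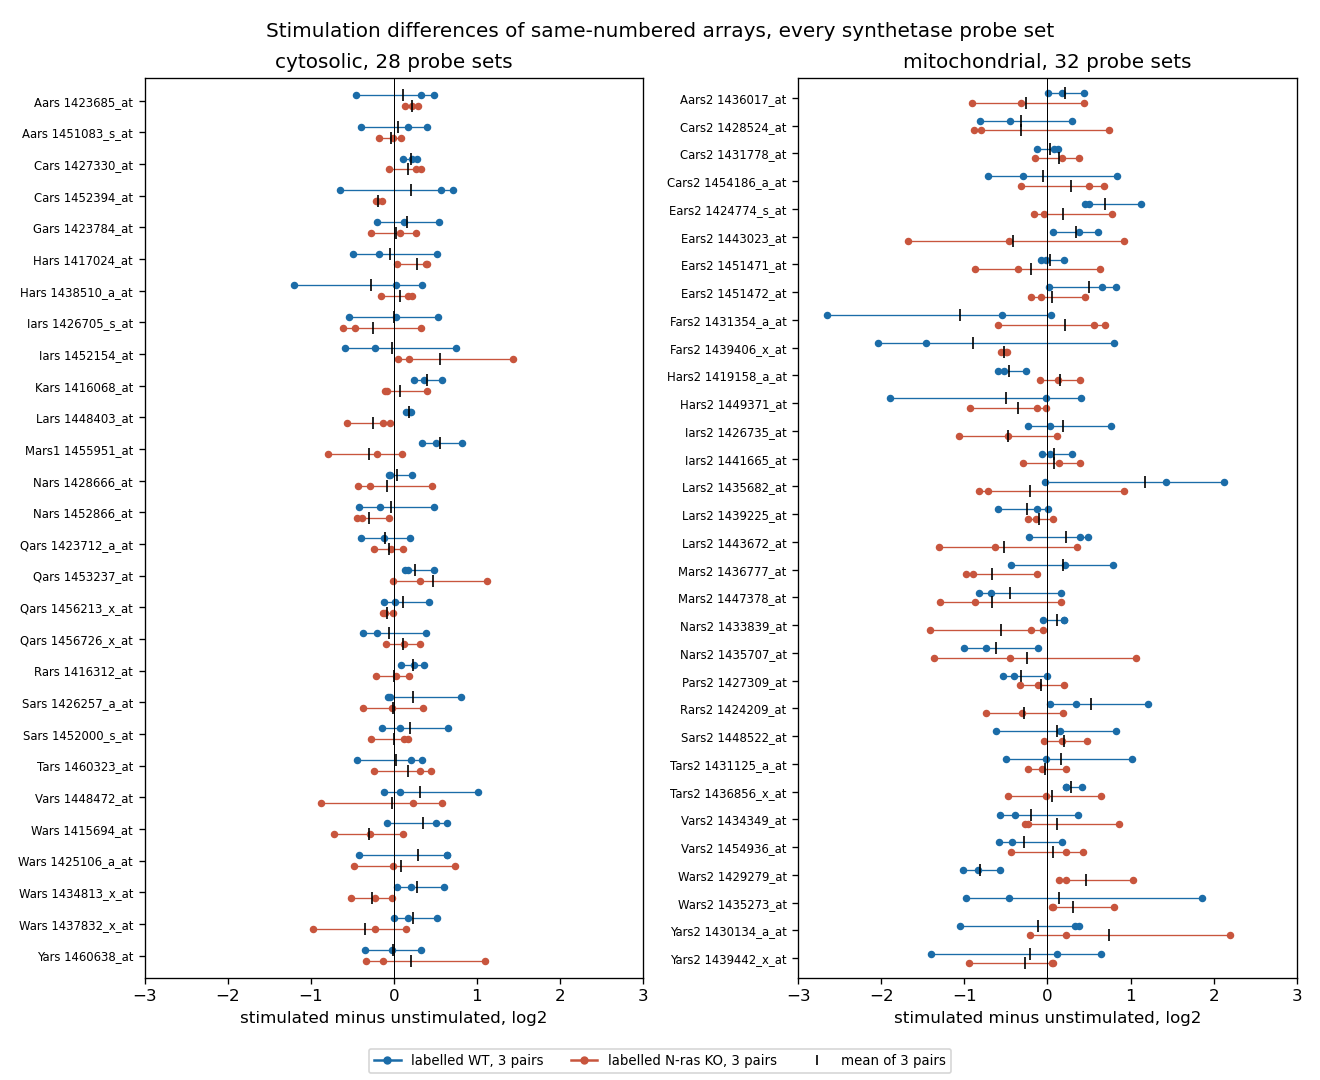
Stimulated minus unstimulated log2 value of same-numbered arrays (horizontal axis) for each of the 28 cytosolic and 32 mitochondrial probe sets, 3 pairs labelled WT (blue) and 3 labelled N-ras KO (red), with a line over their range and a black tick at their mean. Most lines cross 0 in both genotypes, and on Wars2 1429279_at the WT pairs (-1.02 to -0.57) and the N-ras KO pairs (0.13 to 1.04) lie apart.

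The responses of the 2 genotypes differed in no synthetase past the study's thresholds in the unpaired fit. The count was 0 of 60 in limma, at the adjusted p, at the study's thresholds and at an unadjusted p of 0.05, against 1.29% of all probe sets at the study's thresholds and 1.30% at the unadjusted p. The median difference, WT response minus N-ras KO response, was 0.20 for the cytosolic genes, 10 of 16 above 0, and 0.03 for the mitochondrial genes, against 0.00 for all genes. With the replicate number as a block within genotype 3 probe sets passed, against 4.12% of all probe sets, each at an adjusted p of 0.961. Without the arrays numbered 3 the count was 2 (Lars2 and Hars2), against 3.67%, and without WT 1 and N-ras KO 3 it was 0, against 2.3%.

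Wars2 1429279_at was 1 of these. It was 0.00, -0.81 and 0.87 on the unstimulated and -1.02, -1.38 and 0.04 on the stimulated arrays labelled WT, and 0.00, 1.09 and -0.01 against 1.04, 1.22 and 0.22 on those labelled N-ras KO. All 3 WT pairs were lower with stimulation, by -1.02, -0.57 and -0.84, and all 3 N-ras KO pairs higher, by 1.04, 0.13 and 0.23. The difference of the responses was -1.27 (blocked SE 0.30, unadjusted p = 0.0056; unblocked SE 0.74, unadjusted p = 0.114, limma). The second probe set of the gene, 1435273_at, did not show it, with pairs of 1.86, -0.98 and -0.46 in WT and 0.05, 0.80 and 0.07 in N-ras KO and a difference of -0.17.

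The others were Mars1, the cytosolic methionyl enzyme, with a difference of 0.86 (blocked, unadjusted p = 0.026), and Hars2 1419158_a_at, with -0.61 (blocked, unadjusted p = 0.031). The other Hars2 probe set, 1449371_at, gave -0.14 (blocked, unadjusted p = 0.828). Mars1 was -0.69, 0.00 and 0.47 on the unstimulated and 0.13, 0.34 and 0.98 on the stimulated WT arrays, against 0.71, 0.00 and -0.66, and -0.08, -0.20 and -0.56, on the N-ras KO arrays. Its responses were higher in all WT pairs and overlapped with none of the N-ras KO pairs. Lars2 1435682_at differed by 1.38 (blocked, unadjusted p = 0.098), and without the arrays numbered 3 by 2.54 (unadjusted p = 0.00069, adjusted p = 0.921, limma), the WT response then being 1.78 and the N-ras KO response -0.77.

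The study's own comparison, stimulated WT minus stimulated N-ras KO, sets 2 changes from separate baselines against each other. The error of those baselines is not counted in the SE, p-values and group overlaps given for it. In the difference of the responses, which counts it, 1.29% of all probe sets passed the study's thresholds. In the study's comparison 5 of 60 synthetase probe sets passed them, 4 higher and 1 lower in the arrays labelled WT. Of all probe sets 6.9% passed, 3.33% higher and 3.57% lower. The share of the synthetases, 5 of 60, is near that background. In limma 0 passed the adjusted p of 0.05, and the same 5 had an unadjusted p of 0.05 or less, against 7.6% of all. The study took Lars2 as a candidate on these same arrays and lists Wars2, Lars and Eprs in its tables from them. Their values here are therefore no independent evidence of a direction. For Lars2 the paper also reports qRT-PCR in transduced CD4+ T cells, with a pattern like that of the arrays. There N-ras, but not H-ras, restored the pattern in N-ras KO cells. Those measurements are not part of these data.

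Lars2 1435682_at was at 1.42, 1.32 and 1.00 on the stimulated arrays labelled WT and at -0.71, -0.80 and -0.72 on those labelled N-ras KO. The groups did not overlap, at 1.25 ± 0.22 and -0.75 ± 0.05 (SD, n = 3 each). The difference was 1.99 (SE 0.51, unadjusted p = 0.0026, adjusted p = 0.514, limma), with the baselines taken as known. The difference of the responses, which counts their error, was 1.38 (SE 0.71, unadjusted p = 0.082, limma). The unstimulated array labelled WT 3 was at 1.03 and that labelled N-ras KO 3 at -1.64, each relative to the unstimulated arrays of its own genotype. Lars2 1443672_at was 0.43, 0.04 and 0.39 against -0.46, -0.93 and -0.63, a difference of 0.96 (SE 0.29, unadjusted p = 0.0081, adjusted p = 0.546, limma), again without overlap. The third probe set, 1439225_at, was 0.01, -0.53 and -0.72 against 0.06, -0.56 and -0.13, with groups that overlapped.

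**Figure D4:**
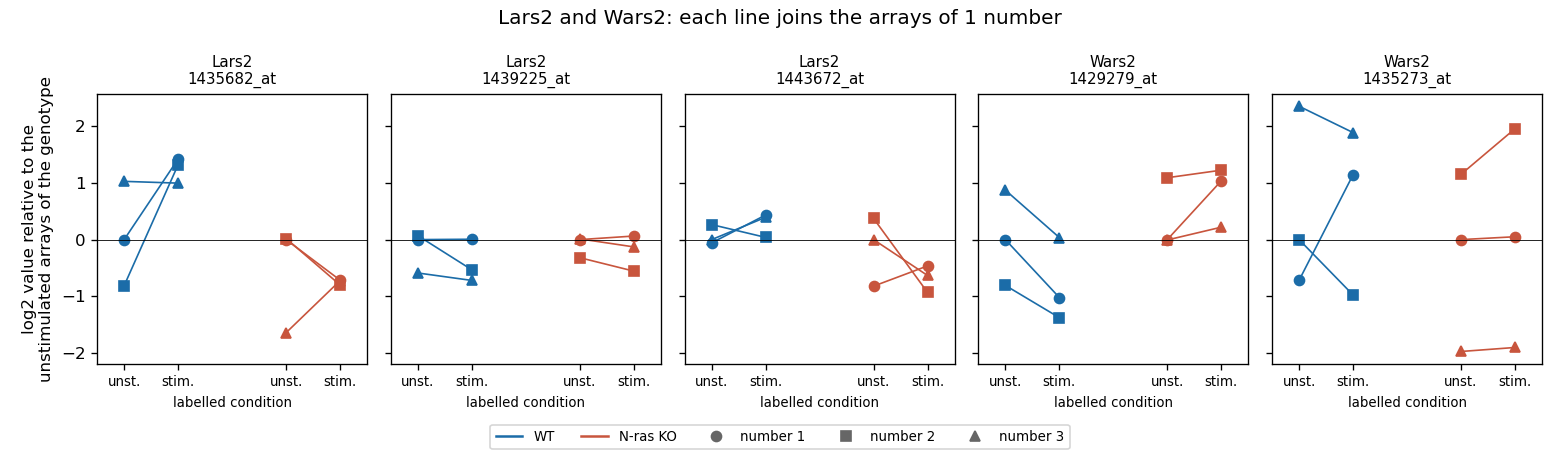
Log2 values of the 3 Lars2 and 2 Wars2 probe sets (vertical axis, relative to the unstimulated arrays of the genotype) on the unstimulated and stimulated arrays, blue for labelled WT and red for labelled N-ras KO, each line joining the arrays of 1 number. On Lars2 1435682_at the stimulated WT arrays lie at 1.00 to 1.42 and the N-ras KO arrays at -0.80 to -0.71, while the unstimulated arrays numbered 3 lie at 1.03 and -1.64.

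Wars2 1429279_at was lower in the stimulated arrays labelled WT, at -0.79 ± 0.73 against 0.83 ± 0.53 (SD, n = 3 each), a difference of -1.61 (SE 0.52, unadjusted p = 0.011, adjusted p = 0.572, limma). All WT values (-1.02, -1.38 and 0.04) were below all N-ras KO values (1.04, 1.22 and 0.22). On 1435273_at the groups overlapped, at 1.14, -0.98 and 1.89 against 0.05, 1.95 and -1.90.

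Nars2, the mitochondrial asparaginyl enzyme, was -0.13, 0.19 and 1.32 against -0.06, -1.0 and -1.07 on 1433839_at, where the groups overlapped. The difference was 1.17 (SE 0.50, unadjusted p = 0.041, adjusted p = 0.638, limma), and its other probe set, 1435707_at, was 0.00, -0.74 and -1.25 against -0.12, -0.45 and -0.36. Lars, the cytosolic leucyl enzyme, was 0.20, 0.02 and 0.39 against -0.45, -0.13 and -0.79 on its single probe set, without overlap, a difference of 0.66 (SE 0.27, unadjusted p = 0.033, adjusted p = 0.626, limma). The call of Nars2 was lost without any of 5 of the 12 arrays (WT stimulated 2 or 3, N-ras KO stimulated 2 or 3, N-ras KO unstimulated 1) and that of Lars without any of 4 (stimulated 1 or 3 of either genotype). Those of both Lars2 probe sets and of Wars2 held without each array in turn. Lars2 1443672_at, Nars2 1433839_at and Lars did not pass without the arrays numbered 3, nor without WT 1 and N-ras KO 3. Lars2 1435682_at and Wars2 1429279_at passed in both settings.

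As a group the cytosolic synthetases leaned higher in the stimulated arrays labelled WT, and without the arrays numbered 3 they did not. With all arrays the median difference was 0.42, with 15 of 16 genes above 0, and that of the mitochondrial genes was 0.25, with 10 above 0, against -0.01 for all genes. Without the arrays numbered 3 the cytosolic median was -0.05, with 5 of 16 above 0, and the mitochondrial one -0.18, with 7 above 0, against 0.05 for all genes. Without N-ras KO 3 alone the cytosolic median was 0.22, and without both WT 1 and N-ras KO 3 it was 0.45, with all 16 above 0. Markers of cell types moved in the same comparison with all arrays: the median was 0.34 for the 9 T cell markers (8 above 0), -0.52 for the 4 B cell markers (0 above 0), 0.50 for the 2 CD8 T cell markers, 0.38 for the 5 macrophage and dendritic cell markers, -0.34 for the 2 red cell markers and -1.35 for the 6 neutrophil markers, of which Camp, Mmp9 and Ngp passed the study's thresholds in the lower direction. Their part was not tested.

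Single genes turned too. With all arrays Iars was higher in the stimulated WT 3 array than in N-ras KO 3 (1.99 against -2.57) but lower in numbers 1 and 2 (-0.92 and -0.56 against 0.09 and 0.34). Without the arrays numbered 3 both its probe sets passed the study's thresholds in the lower direction, at -0.76 and -1.15. That setting gave 9 of 60 probe sets past those thresholds, 2 higher (Lars2 1435682_at at 2.13 and Mars2 1436777_at at 1.78) and 7 lower, among them Hars (-0.66), Hars2 (-0.84), Yars2 (-1.23) and Fars2 (-1.51), against 11.4% of all probe sets. Without WT 1 and N-ras KO 3 there were 4, Lars2 1435682_at (1.91), Wars2 1429279_at (-1.80), Mars2 (1.34) and Ears2 1451472_at (0.66), against 7.24%.

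Related genes were read beside the synthetases, counted by gene with any probe set past the study's thresholds. Of 20 T cell activation genes 10 were higher with stimulation in WT and 8 in N-ras KO and none lower, against 1.10% and 1.87% of all genes higher. Irf4, a transcription factor induced through the TCR, differed by 1.59 in WT and 2.39 in N-ras KO, and Nr4a1, an early TCR response gene, by 2.22 and 3.62. The stimulus was thus seen in the cells in which the synthetases moved little.

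Of 30 genes of the amino acid response 3 were higher in WT, against 1.10% of all genes. These were Chac1, which degrades glutathione, at 1.16 (SE 0.32), Psat1, of serine synthesis, at 1.45 (SE 0.62), and Aldh18a1, of proline synthesis, at 0.62 (SE 0.24). None was lower, and in N-ras KO 1 was higher, against 1.87% of all genes, the amino acid transporter gene Slc1a4 at 0.85 (SE 0.34). The median of the list was 0.19 in WT, 23 of 30 above 0, and 0.02 in N-ras KO. Of 17 other synthetase subunits, complex members and tRNA-charging factors 1 was higher in WT, Eprs, the glutamyl-prolyl enzyme of the complex, at 1.06 (SE 0.43). In N-ras KO 2 of the 17 were lower, against 2.04% of all genes, Dtd2, which clears wrongly made aminoacyl-tRNA, at -1.57 (SE 0.60) and Sepsecs, of selenocysteine tRNA synthesis, at -1.02 (SE 0.39). Of 17 genes for translation of the mitochondrial genome 0 passed in either response. Of all genes 1.10% were higher and 0.82% lower in WT, and 1.87% and 2.04% in N-ras KO, so 0 of 17 is near the background. At an unadjusted p of 0.05 or less in limma there were 0 in WT and 0 in N-ras KO, against 391 and 781 of all 18194 genes.

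In stimulated WT minus N-ras KO the mitochondrial translation genes had a median of 0.57, with 14 of 17 above 0, and 2 passed, Tufm, a mitochondrial elongation factor, at 1.43 and Lrpprc, which stabilizes mitochondrial mRNA, at 0.82, against 6.13% of all genes higher. The median of the mitochondrial translation list was 0.47 and 0.78 on the WT 3 and -0.53 and -0.81 on the N-ras KO 3 arrays, with the other 8 between -0.24 and 0.03, so the arrays numbered 3 stood apart here as in the synthetases. Of the 30 amino acid response genes 3 were higher (Aldh18a1 at 0.92, Chac1 at 0.89 and the mitochondrial folate enzyme gene Mthfd2 at 0.72) and 2 lower, among them Slc1a4 at -0.81, against 6.13% and 5.47% of all genes. Of the 17 other synthetase and charging genes 2 were higher, Eprs at 1.32, on the probe set that passed in the WT response, and Sepsecs, and 1 was lower, Sepsecs again on 1 of its probe sets at -1.30 (SE 0.41), so the probe sets of Sepsecs disagreed.

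In thymocytes no synthetase differed by 1.5-fold between genotypes, which for 40 probe sets is near the background. The arrays held 40 probe sets of 23 members, 15 cytosolic and 8 mitochondrial, and there is no replicate and so no test. Of these 0 differed by 1.5-fold between WT and N-ras KO, against 2.64% of all probe sets, and 0 between WT and H-ras KO, against 2.97%. The values of 9 of the 40 (22.5%) were 0 on all 3 arrays, as were 23.7% of all.

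In WT minus N-ras KO the cytosolic probe sets ran from -0.29 (Lars) to 0.29 (Aars 1423685_at) and the mitochondrial ones from -0.38 (Iars2) to 0.28 (Ears2 1451471_at). In WT minus H-ras KO the cytosolic ones ran from -0.53 (Vars, at 0.00 in WT and 0.53 in H-ras KO) to 0.30 (Nars 1452866_at), and the mitochondrial ones from -0.38 (Iars2) to 0.19 (Fars2 1431354_a_at). Of the cytosolic probe sets 3 of 27 (11.1%) were lower in WT than in both KO arrays, 1 of Lars and 2 of Iars, and 7 (25.9%) were higher, 2 each of Aars and Sars and 1 each of Hars, Nars and Tars. Of the mitochondrial ones 5 of 13 (38.5%) were lower, of Iars2, Rars2, Hars2 and Fars2, and 2 (15.4%) higher, of Ears2 and Fars2, against 20.3% of all probe sets lower and 21.3% higher. Hars2 1449371_at was at -0.34 in WT, 0.03 in N-ras KO and 0.00 in H-ras KO. Both comparisons share the 1 WT array. The median size of a probe set's difference was 0.03 for the cytosolic and 0.17 for the mitochondrial genes in WT minus N-ras KO, against 0.05 for all, and 0.02 and 0.03 in WT minus H-ras KO, against 0.04. Neutrophil markers differed more, with medians of 1.45 and 2.01 in the same 2 comparisons. Their part in these values was not tested.

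**Figure D5:**
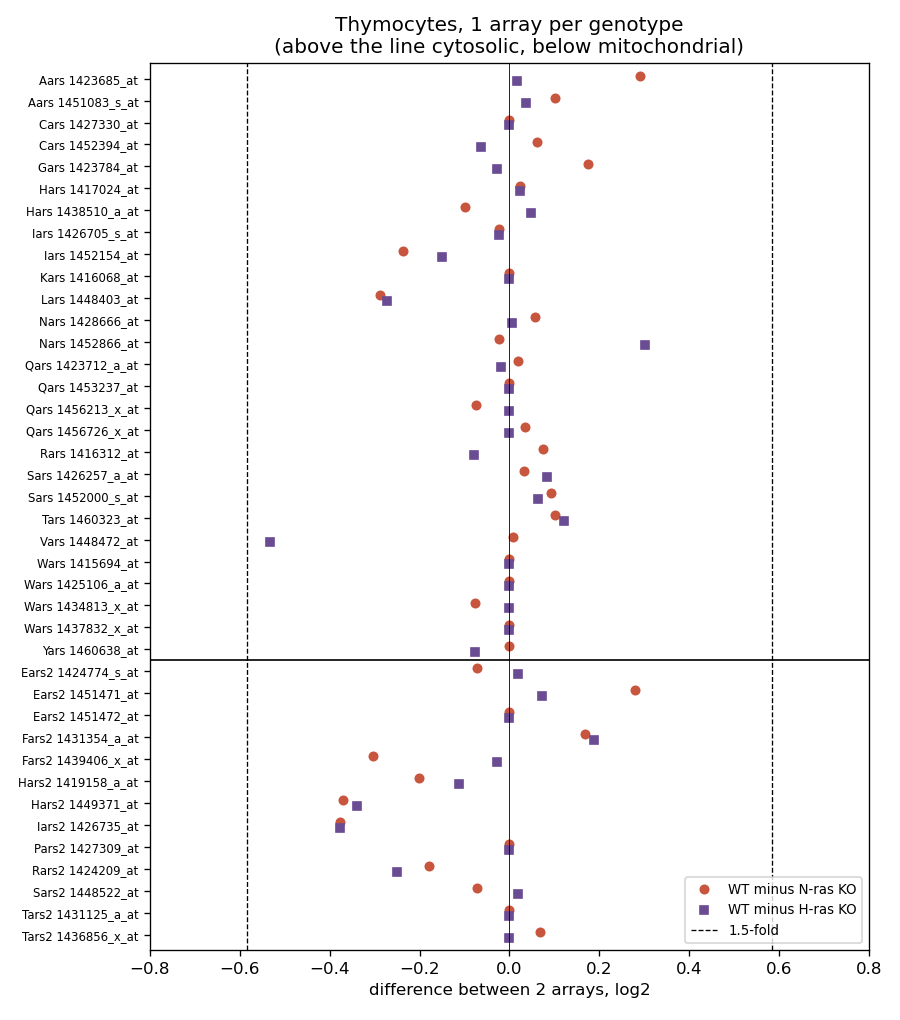
Difference between 2 thymocyte arrays in log2 (horizontal axis) for each of the 40 synthetase probe sets, circles for WT minus N-ras KO and squares for WT minus H-ras KO, with dashed lines at 1.5-fold. All points lie within the lines, from -0.53 for Vars to 0.30 for Nars.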

How the data were processed

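Expression was measured on Affymetrix arrays, 12 of CD4+ T cells (4 groups of 3) and 3 of thymocytes. The authors deposited log2 values, per the methods by RMA in GeneSpring with quantile normalization and a shift of the baseline to control medians. The methods name a single array type, and the submitters' notes name RMA. Gene names came from the platform annotation of GEO and a RefSeq table. On the CD4+ arrays 34958 had 1 gene, 932 several and 9211 none. A linear model (limma 3.58.1, R 4.3.3, two-sided, Benjamini-Hochberg over 45101 probe sets) was fitted to all 12 arrays without a block. A gene is the mean of its probe sets. Simulated data with 200 changed probe sets served as a test of the fit. Thymocytes were compared by fold only.

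Same-numbered arrays correlated positively within genotypes (0.361, 0.394 and 0.626 in N-ras KO; 0.458, 0.447 and 0.738 in WT) and negatively between them (-0.234, -0.266 and -0.621 unstimulated; -0.117, -0.211 and -0.526 stimulated), so a block by number within genotype was also fitted. Genes given in full were those past the study's thresholds in any contrast, Lars2 and Wars2. Members and lists were chosen with earlier results of these data known. The number of arrays limits the precision, and p-values measure the spread between these samples, whose origin in separate mice the sources describe in 2 ways. A planned comparison of protein sequences was not run.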

Additional observations from a re-analysis of the deposited data

Results flagged for a closer look

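In 3 of the 60 synthetase probe sets (5%) the pairs labelled WT all moved one way with stimulation and the pairs labelled N-ras KO all the other way, which 2.97% of all probe sets did. Lars 1448403_at, the cytosolic leucyl enzyme, was higher in 3 of 3 WT pairs and lower in 3 of 3 N-ras KO pairs, a difference of the responses of 0.4261 (unadjusted p = 0.285, under the block unadjusted p = 0.091, limma). Wars 1434813_x_at, the cytosolic tryptophanyl enzyme, had the same directions, with 0.5418 (unadjusted p = 0.237, under the block unadjusted p = 0.067, limma). The other Wars probe sets did not have them in every pair. On 1415694_at the pairs were -0.08, 0.51 and 0.64 in WT and -0.28, 0.11 and -0.72 in N-ras KO. On 1425106_a_at they were -0.42, 0.64 and 0.64 against -0.47, 0.73 and -0.01, and on 1437832_x_at 0.00, 0.17 and 0.52 against -0.23, 0.15 and -0.97. Wars2 1429279_at, the mitochondrial tryptophanyl enzyme, was lower in 3 of 3 WT pairs and higher in 3 of 3 N-ras KO pairs, with -1.273 (unadjusted p = 0.114, under the block unadjusted p = 0.0056, limma). With and without the block none passed the adjusted p (0.961 under the block for all 3).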

How the results depend on the processing

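No alternative reversed the direction of the 7 calls at the study's thresholds in the main fit, although probe sets outside them turned (without the arrays numbered 3, Iars 1426705_s_at from 1.02 to -0.76, Iars 1452154_at from 0.75 to -1.15, Hars 1417024_at from 0.13 to -0.66 and Yars2 1430134_a_at from 0.36 to -1.23 in stimulated WT minus N-ras KO), and at an adjusted p of 0.05 no synthetase passed in any of the main comparisons. The counts at the study's thresholds are small and moved easily. In the WT response the count of 2 became 1 with the block across genotypes, without WT 1, without WT 1 and N-ras KO 3 (with or without the block), with quantile normalization, without _s_at, _x_at and _a_at probe sets, with 1 probe set per gene and with the 2 groups only; it became 4 with array weights and 0 with the methods' t-test. In the N-ras KO response 0 became 2 without the arrays numbered 3 and 1 with the block within genotype and without WT 1 and N-ras KO 3. In the difference of the responses 0 became 3 with the replicate block within genotype, 4 with it and without WT 1 and N-ras KO 3, 2 with array weights or without the arrays numbered 3, and 1 with quantile normalization or without N-ras KO 3. In stimulated WT minus N-ras KO 5 became 3 with the block across genotypes, 2 with quantile normalization and 9 without the arrays numbered 3. Leaving out each array in turn gave 0 to 4, 0 to 1, 0 to 2 and 4 to 8 in the same order. The WT count was 0 without WT unstimulated 1, WT stimulated 2 or N-ras KO stimulated 1 and 4 without WT stimulated 3, and the last count was 8 without N-ras KO stimulated 2. The causes were not tested.

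Leaving out each array, the cytosolic median response ran from -0.12 to 0.35 in WT and -0.24 to 0.18 in N-ras KO. The mitochondrial one ran from -0.22 to 0.14 and -0.29 to 0.23, so each of the 4 medians changed sign without some array. These unpaired fits kept the partner of the array left out, so their ranges are not those of whole pairs left out. The mitochondrial WT median was 0.12 with 1 probe set per gene and -0.024 without the arrays numbered 3, and the N-ras KO one -0.23 with 1 probe set per gene and -0.20 without _s_at, _x_at and _a_at probe sets. The thymocyte counts stayed at 0 in 4 of 4 settings each. The settings without the arrays numbered 3, or without WT 1 or N-ras KO 3 alone, and the block without both were chosen after the data were seen. The values hold no brightness, so probe sets near background could not be removed.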
